A study of Homo sapiens with 4 samples.

Results

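The 293T line is a human embryonic kidney line, described in the labels as renal epithelium. Its cells had spent 2 h in a magnetic field (exposed) or had received no field (control), and each group gave 3 libraries of poly(A)-selected RNA. The labels name no other treatment or genetic change in either group, and the sources used here give neither the make and strength of the field nor the temperature of the cultures. In all, the series holds 2 more groups of 3 libraries, from A549, a non-small cell lung cancer line, with the same 2 h exposure and its own control without a field. All 12 libraries entered the fit described here, and the A549 groups are used below only to show where 293T differed. The labels do not say if the 3 libraries of a group stem from separate cultures, and p-values therefore reflect only how far these libraries scatter, possibly for technical reasons. A gene was included where its FPKM (fragments scaled to transcript length and to library size) was at least 0.5 in at least 3 of the 6 libraries of 293T. This kept 12618 of 26348 genes listed and left out 13730.

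Cells answer misfolded protein with a few linked programmes. Heat shock factor HSF1 turns on chaperones of the cytosol and nucleus, which fold or hold client proteins. In the endoplasmic reticulum (ER), the sensors IRE1 (gene ERN1), PERK (EIF2AK3) and ATF6 run the unfolded protein response, which raises ER chaperones and ER-associated degradation. Phosphorylation of the initiation factor eIF2 by PERK and related kinases raises translation of ATF4, a factor that drives amino acid and redox genes and the factor CHOP (DDIT3). Stress kinases such as JNK and p38 act on immediate early genes, among them JUN and ATF3. 293T is widely used because it grows fast and takes up DNA readily, and its expression has neuronal features along with those of kidney.

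The libraries held 37171917 to 38805278 recovered counts in 293T, the highest 1.044 times the lowest. The identity of the line was read from its controls. Neurofilament genes reported in this line were higher than in control A549, with NEFM at 42.4 ± 0.825, NEFL at 17.3 ± 0.469 and INA at 13.7 ± 0.338 FPKM (SD, n = 3), against 0.0407, 3.79 and 8.0 FPKM there. The whole list of 14 neural-type genes did not set the line apart, since its summed FPKM was 111 to 112 in control 293T and 146 to 153 in control A549. Of 15 kidney epithelial genes 10 were at or above 0.5 FPKM in controls, led by KRT18 at 52.7 and KRT8 at 28.9 FPKM, with the renal progenitor factor SIX2 at 9.54 FPKM. This list did not set the line apart either. In control A549 8 of the 15 reached that level, with KRT18 at 1660, KRT8 at 1570 and SIX2 at 0.00356 FPKM. PAX8 was at 0.00855, CDH16 at 0.00303 and PAX2 at 0.587 FPKM in control 293T, against 0.233, 1.63 and 0.17 FPKM in control A549. KRT7 and AKR1B10, high in A549 at 604 and 764 FPKM, were at 0.642 and 0.898 FPKM in 293T. Summed FPKM of 15 markers of blood cells and fibroblasts was 7.92 to 8.41 in controls and 7.44 to 7.86 in exposed libraries, and that of 15 A549 marker genes 122 to 125 and 133 to 134. On the first principal component of the 6 libraries, which held 73% of the variance, controls lay between 11.63 and 13.24. Exposed libraries lay at -16.02, -14.56 and -6.48, so replicate 3 of the exposed group stood nearer to the controls. It had the smallest change in 10 of the 12 largest rises and 9 of the 12 largest falls named below. The counts over all genes are therefore also given without it, and a list's count where it moved by over 1.5 times. Mitochondrially encoded transcripts made up 4.37 to 4.45% of the counts in exposed and 4.85 to 5.21% in control libraries, and the 6 lists of chaperones used below 4.64, 4.65 and 3.99% against 3.10 to 3.14%. The part of these shares in small shifts of other genes was not tested. HTSeq counted the reads, per the submitters' processing notes, and no strand setting for it is known here. Genes that share their span with another expressed gene are therefore uncertain. Among those named below these are, beside the ones marked in place, HSF1, HSP90AA1, PPID, TCP1, SQSTM1, SYVN1, ASNS, JUNB, BTG1, MXD1, MDM2, IFIT5, CIRBP, GAS5, CDC25C, ATP5F1B, DBP, PIEZO1 and TRPV1.

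In exposed 293T cells 1925 genes were higher and 3357 lower in the limma fit at a Benjamini-Hochberg adjusted p under 0.05, which is 15.3% and 26.6% of the genes tested. These shares are the background for every count below. Most differences were small. The median over all genes was -0.04 on the log2(FPKM + 1) scale used throughout, and the central 90% lay between -0.36 and 0.29. Genes called higher had a median difference of 0.23 and those called lower one of -0.24. A log2 difference of at least 1 was reached by 22 genes upwards and by 2 downwards, NEAT1 and PRR22. Strongly raised genes were few, and small decreases were many. All 3 exposed libraries lay above all 3 controls in 20.4% of genes and below them in 32.6%, and this held for 1876 of the genes called higher and 3204 of those called lower. Without exposed replicate 3, 1927 genes were higher and 3569 lower. The direction of small changes depended on the scaling. Rises made up 36.4% of all calls as fitted here, 47.9% after quantile normalization, 46.5% after centring each library on its median and 29.6% when FPKM was scaled without mitochondrially encoded genes. In a bulk culture, RNA from fewer cells and less RNA per cell cannot be told apart.

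**Figure D1:**
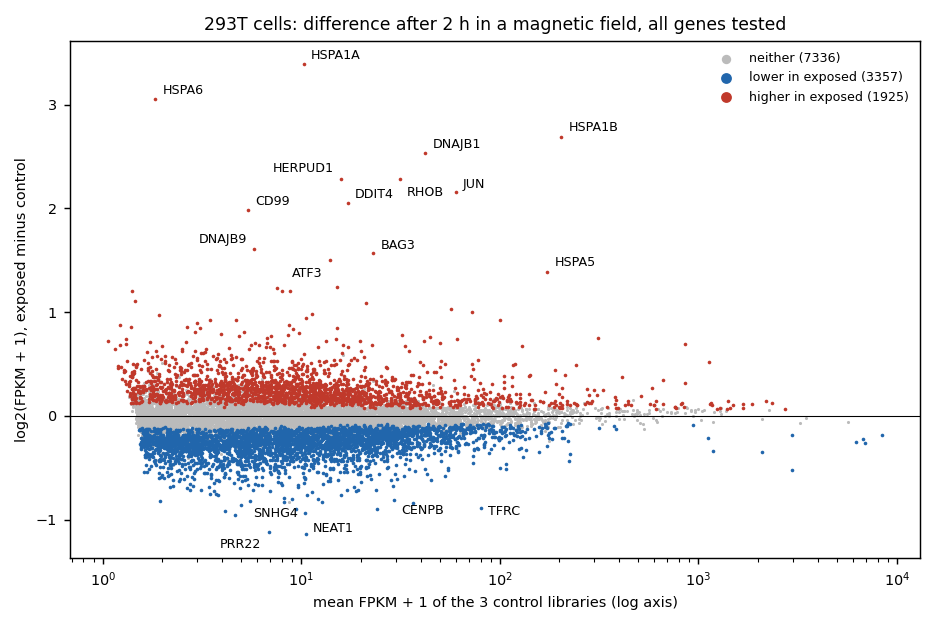
Each point is 1 of the 12618 genes, with the mean FPKM + 1 of the 3 control libraries on a log axis and the log2(FPKM + 1) difference, exposed minus control, on the other. Red points were called higher (1925) and blue points lower (3357), and the named chaperones and stress genes stand above a band of small differences.

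The 12 largest rises held chaperones, the ER gene HERPUD1, transcription factors and signalling genes. HSPA1A, an inducible HSP70, was at 148, 116 and 71.8 FPKM in exposed libraries and 9.53, 8.85 and 9.49 FPKM in controls. All 3 exposed libraries stood far above all controls, the third least so, and the log2 difference was 3.39 (SE 0.21, limma adjusted p = 2.59e-06). Its near-identical copy HSPA1B was at 1666, 1437 and 944 FPKM against 205, 197 and 208 FPKM (log2 difference 2.69, SE 0.19). The groups again did not overlap, but reads of these copies cannot be assigned with certainty, so the split between them is uncertain. HSPA6, a strictly inducible HSP70 that is silent in most unstressed cells, was at 26.0, 27.5 and 3.58 FPKM against 0.822, 0.747 and 0.955 FPKM. Replicate 3 lay far below the other 2 exposed libraries yet above each control. The log2 difference was 3.05 (SE 0.64, limma adjusted p = 0.0027). Among 17 alternatives, with adjusted p from 0.000119 to 0.17, limma-voom run on the recovered counts gave the highest and lost the call. DNAJB1, the J-domain partner that hands clients to HSP70, was at 291, 236 and 206 FPKM against 41.3, 41.3 and 40.8 FPKM. Its exposed libraries were all far above the controls, with a log2 difference of 2.53 (SE 0.19), and the gene shares its span with TECR. BAG3, which couples HSP70 to small heat shock proteins and selective autophagy, was at 85.2, 72.2 and 50.6 FPKM against 22.2, 21.5 and 22.7 FPKM (log2 difference 1.57, SE 0.17). The exposed libraries again kept apart from the controls.

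HERPUD1, an ER membrane protein of ER-associated degradation, was at 92.8, 91.3 and 52.3 FPKM in exposed and 14.2, 15 and 15.4 FPKM in control libraries (log2 difference 2.28, SE 0.24). DNAJB9, a J-domain partner of BiP in the ER, was at 20.4, 18.2 and 12.6 FPKM against 4.82, 4.85 and 4.76 FPKM (log2 difference 1.61, SE 0.16). In both, replicate 3 was the lowest exposed library and still stood well above the controls. RHOB, a small GTPase of endosomes and the actin cytoskeleton with an unstable mRNA, was at 181, 187 and 104 FPKM against 30.9, 30.2 and 30.2 FPKM (log2 difference 2.28, SE 0.19). JUN, an AP-1 subunit, was at 321, 278 and 213 FPKM against 58.7, 60.2 and 58.5 FPKM (log2 difference 2.16, SE 0.18). ATF3, a bZIP factor of the ATF family, was at 47.1, 41.9 and 29 FPKM against 12.6, 14.1 and 12.3 FPKM (log2 difference 1.5, SE 0.15). No exposed library of these 3 genes came near a control. DDIT4, the mTORC1 inhibitor REDD1, was at 88.8, 57.3 and 67.6 FPKM against 16.8, 16.4 and 15.4 FPKM, and here replicate 2, not replicate 3, was the lowest exposed library (log2 difference 2.05, SE 0.14). CD99, a membrane glycoprotein, is less certain. Exposed libraries were at 11.8, 16 and 15.2 FPKM, while controls were at 1.37, 1.05 and 10.7 FPKM, so control replicate 3 lay close to the exposed group. The gene lies in a region shared by the sex chromosomes, and its call (log2 difference 1.98, SE 0.62, limma adjusted p = 0.022) was lost in 4 of 17 alternatives, with adjusted p between 0.00196 and 0.0938.

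The 12 largest falls were smaller and of mixed function. NEAT1, the long non-coding RNA that scaffolds nuclear paraspeckles, was at 3.63, 3.87 and 3.83 FPKM in exposed and 9.39, 9.26 and 9.97 FPKM in control libraries. Exposed libraries were tightly grouped, and the log2 difference was -1.14 (SE 0.06, limma adjusted p = 1.39e-06). PRR22, a proline-rich protein of little known function, was at 2.25, 2.17 and 2.03 FPKM against 6.19, 5.20 and 6.15 FPKM (log2 difference -1.12, SE 0.08). TFRC, the transferrin receptor that takes up iron, was at 39.9, 44.2 and 43.1 FPKM against 77.6, 81.1 and 80.2 FPKM. This was the smallest adjusted p of the 24 genes ranked by size (7.67e-08, limma), with a log2 difference of -0.89 (SE 0.04), and exposed replicate 3 lay between the other 2. RNF126, an E3 ubiquitin ligase that clears mislocalised proteins, was at 19, 17.2 and 22.7 FPKM against 36.5, 33.7 and 36.6 FPKM (log2 difference -0.84, SE 0.09). CENPB, which binds centromeric satellite DNA, was at 13.9, 15.1 and 18.5 FPKM against 29.1, 28.1 and 27.7 FPKM (log2 difference -0.81, SE 0.08). DCAF16, a substrate receptor of cullin ubiquitin ligases, was at 10.1, 10.7 and 15.2 FPKM against 23.3, 22.9 and 22.7 FPKM (log2 difference -0.90, SE 0.11). In RNF126, CENPB and DCAF16 the highest exposed library was replicate 3, and the groups did not overlap. RFXAP, a subunit of the factor that activates MHC class II promoters, had a log2 difference of -0.90 (SE 0.10), and ARMCX5, an armadillo repeat gene, one of -0.83 (SE 0.10). The other 4 share their span with an expressed gene, so their values are uncertain without stranded counting. SNHG4 (-0.94) overlaps MATR3, ASH1L-AS1 (-0.86) overlaps ASH1L, NAA80 (-0.82) overlaps HYAL3 and TMEM129 (-0.80) overlaps TACC3.

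**Figure D2:**
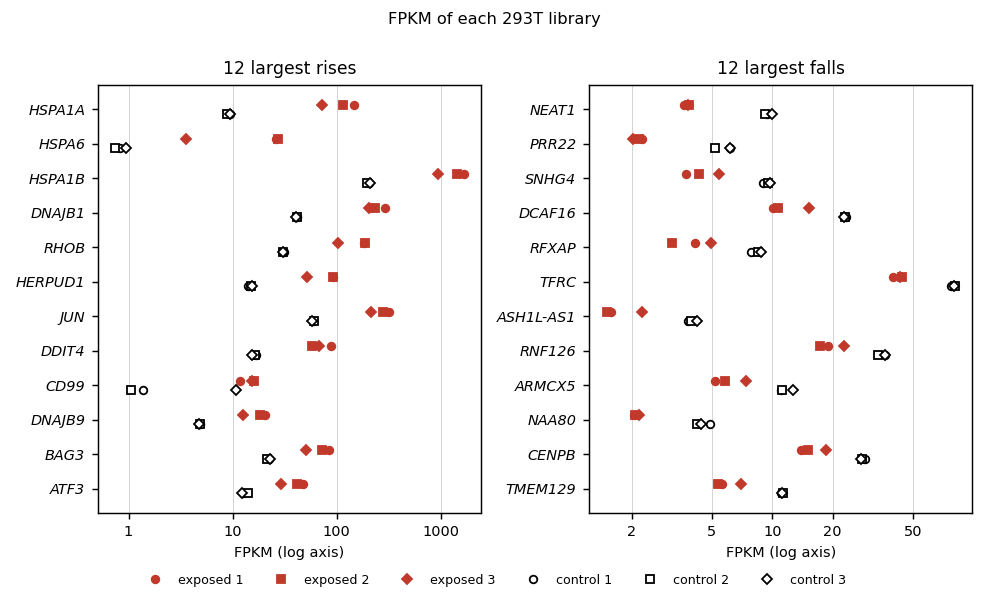
FPKM on a log axis in each of the 6 libraries of 293T for the 12 largest rises (left) and the 12 largest falls (right), with exposed libraries filled, control libraries open and a marker shape for each replicate number. The exposed diamonds (replicate 3) are often the ones nearest to the controls, and CD99 is the gene whose controls spread most (1.05 to 10.7 FPKM).

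Cytosolic chaperones rose in the HSP70 and HSP90 families but not across all co-chaperones. Of 12 HSP70 and HSP110 genes tested, 7 rose and 0 fell, with a median log2 difference of 0.33 against -0.04 for all genes, and without exposed replicate 3 the count was 8. Beside the inducible members above, HSPH1, an HSP110 that releases nucleotide from HSP70, was at 159, 161 and 117 FPKM against 71.7, 71.8 and 70.8 FPKM (log2 difference 1.00, SE 0.13). HSPA8, the constitutive HSP70 and one of the most abundant messages here, was at 1687, 1742 and 1496 FPKM against 1148, 1135 and 1132 FPKM (log2 difference 0.52, SE 0.05). In each, all exposed libraries exceeded all controls. HSPA1L, a testis HSP70 next to HSPA1A, was below the filter, at 0.159 to 0.302 FPKM in exposed and 0.170 to 0.218 FPKM in control libraries. HSP90 and its co-chaperones behaved alike, with 11 of 18 higher, 1 lower and a median of 0.28, or 3 lower without exposed replicate 3. HSP90AA1, the inducible HSP90, was at 1450, 1527 and 1192 FPKM against 836, 852 and 877 FPKM (log2 difference 0.69, SE 0.08). The constitutive HSP90AB1 rose less, by 0.32 (SE 0.05). CHORDC1, an HSP90 co-chaperone, was at 78.8, 70.2 and 56.2 FPKM against 38.5, 41.8 and 41.8 FPKM (log2 difference 0.72, SE 0.11). The cochaperones PPID (0.63), AHSA1 (0.38) and STIP1 (0.27) rose too, while FKBP5, a glucocorticoid-induced co-chaperone, had a difference of -0.08 that did not pass.

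J-domain proteins, which choose clients for HSP70, went both ways, with 8 of 34 higher, 11 lower and a median of -0.02. Only 6 were lower without exposed replicate 1, control replicate 1 or control replicate 3. DNAJB4 was at 21.3, 17.3 and 12.6 FPKM against 5.89, 6.93 and 6.80 FPKM (log2 difference 1.23, SE 0.19), a value that is uncertain because the gene overlaps FUBP1. DNAJA1, a cytosolic partner of HSPA8, rose by 0.49 (SE 0.06) and DNAJB6, which suppresses protein aggregation, by 0.47 (SE 0.06). DNAJC30, a mitochondrial member, fell by 0.34 (SE 0.05). Of 9 small heat shock and BAG proteins 4 rose and 2 fell, and 2 rose without exposed or control replicate 1. HSPB1 (HSP27) was at 126, 105 and 76.6 FPKM against 65.3, 56.1 and 58.8 FPKM, so replicate 3 stood only just above the highest control (log2 difference 0.74, SE 0.19). HSPB8, its partner in the BAG3 complex, was at 6.88, 7.10 and 3.72 FPKM against 3.36, 3.47 and 3.53 FPKM, and its call (limma adjusted p = 0.0247) was lost in 7 of 17 alternatives, with adjusted p between 0.000882 and 0.107. CRYAB, the alpha B crystallin, was not above 0.0563 FPKM in any of the 6 libraries. Among 16 chaperonin and prefoldin genes 3 rose and 2 fell, and 1 rose without exposed replicate 2, control replicate 1 or control replicate 2. Leaving out any 1 library left 1 lower. The mitochondrial HSPD1 (HSP60) rose by 0.27 (SE 0.06), and TCP1, a subunit of the cytosolic ring, was at 0.07 (adjusted p = 0.128 in limma). HSF1 itself was lower, at 28.7, 28.6 and 27.2 FPKM against 30.1, 32.9 and 30.1 FPKM (log2 difference -0.14, SE 0.04), as was HSF2 (-0.27, SE 0.09). HSBP1, a small protein that binds HSF1 trimers, rose by 0.19 (SE 0.03). The HSF2 call was lost in 9 of 17 alternatives and the HSF1 call in 3.

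Promoters of the chaperones were searched for the letters of the heat shock element, the binding pattern of HSF1. Sequences come from RefSeq (GRCh38.p14), which gave a promoter for 10320 of the 12618 genes, each running from 250 bases before to 50 after the start of the gene. The element was searched as GAANNTTCNNGAA or TTCNNGAANNTTC on both strands. It was present in 5 of 30 promoters of cytosolic and mitochondrial chaperones called higher (HSPA6, HSPA8, DNAJA1, DNAJB6 and CHORDC1) and in the same 5 of 76 promoters of all tested members. Over all genes tested 28 promoters (0.271%) held it. The 3 below are shown because they carry the element shortly before the start, each as the 250 bases before the start, written 5′ to 3′ on the strand of the gene with heat shock elements in capitals. HSPA6 lies at chr1:161524290-161524539 on the plus strand and has a match 74 bases before the start. HSPA8 lies at chr11:123062137-123062386 on the minus strand, with matches at 230 and 55 bases. CHORDC1 lies at chr11:90223050-90223299 on the minus strand, with 3 overlapping matches at 60, 55 and 50 bases.
HSPA6: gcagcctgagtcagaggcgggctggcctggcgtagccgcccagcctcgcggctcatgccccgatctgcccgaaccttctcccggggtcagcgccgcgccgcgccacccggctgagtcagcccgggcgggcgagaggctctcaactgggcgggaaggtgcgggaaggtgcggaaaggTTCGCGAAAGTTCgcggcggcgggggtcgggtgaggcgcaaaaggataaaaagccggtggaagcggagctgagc
HSPA8: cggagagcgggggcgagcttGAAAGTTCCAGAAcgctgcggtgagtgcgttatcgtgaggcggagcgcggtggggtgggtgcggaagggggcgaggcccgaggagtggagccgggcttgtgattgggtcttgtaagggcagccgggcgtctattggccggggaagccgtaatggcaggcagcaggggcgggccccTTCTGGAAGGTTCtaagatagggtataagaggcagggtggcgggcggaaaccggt
CHORDC1: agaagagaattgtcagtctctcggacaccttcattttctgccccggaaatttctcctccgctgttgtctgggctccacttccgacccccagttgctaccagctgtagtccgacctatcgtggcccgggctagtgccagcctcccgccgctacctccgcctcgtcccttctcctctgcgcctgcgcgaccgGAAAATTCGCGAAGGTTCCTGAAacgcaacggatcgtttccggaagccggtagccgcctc
These 3 genes differed in size of response, at 3.05, 0.52 and 0.72 on the log2 scale. The promoters of HSPA1A, HSPA1B, DNAJB1 and BAG3 held no match to these letters in this window. Only the window at the listed start was searched, for DNAJB1 chr19:14529222-14529521 on the minus strand. Other starts of these genes were not searched, so an element there would have been missed. The AP-1 letters TGAGTCA were found on either strand in 2 of the 12 promoters of the largest rises, HSPA6 and BAG3, against 2.66% of promoters of all genes tested. A match is a description of the sequence and says nothing of binding.

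Ubiquitin genes gained while proteasome subunits did not. Of 18 genes of ubiquitin, ZFAND and VCP, 7 rose and 3 fell. UBB, one of the polyubiquitin genes, was at 892, 850 and 789 FPKM against 667, 673 and 647 FPKM (log2 difference 0.35, SE 0.09). ZFAND2A, an arsenite-inducible proteasome adaptor, was at 6.29, 5.67 and 4.97 FPKM against 2.38, 2.55 and 2.54 FPKM (log2 difference 0.92, SE 0.22). The groups of UBB and of ZFAND2A were apart. SQSTM1 (p62), an autophagy receptor for ubiquitinated cargo, rose by 0.42 (SE 0.04), and NPLOC4, a VCP cofactor, fell by 0.43 (SE 0.05). Among 45 proteasome subunits 3 rose and 9 fell with a median of -0.04, equal to that of all genes. Without control replicate 2 the counts were 1 and 5, and without control replicate 1 only 1 rose. Median centring gave 4 lower and scaling without mitochondrially encoded genes 15. PSMD5, an assembly chaperone of the 19S base, fell furthest, from 3.94, 4.34 and 4.28 FPKM to 1.93, 2.10 and 3.25 FPKM (log2 difference -0.62, SE 0.11). The subunits PSMC4 (0.02) and PSMB5 (-0.02) did not pass.

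The ER chaperones, like the HSP70 list, had no member called lower. Of 21 ER chaperones 14 rose and 0 fell, with a median of 0.37, the highest median of the 51 lists of pathways described. HSPA5, the ER HSP70 known as BiP, was at 499, 533 and 350 FPKM against 172, 175 and 171 FPKM (log2 difference 1.39, SE 0.15, limma adjusted p = 5.06e-05). HSP90B1 (GRP94) was at 552, 579 and 447 FPKM against 304, 316 and 315 FPKM (log2 difference 0.75, SE 0.09). Both had every exposed library above every control. MANF, a secreted ER stress factor, was at 205, 213 and 154 FPKM against 101, 98.1 and 98.5 FPKM (log2 difference 0.92, SE 0.13). DNAJC3, a co-chaperone of BiP that also inhibits PERK, rose by 0.88 (SE 0.12), SDF2L1 by 0.78 (SE 0.17) and the disulfide isomerase PDIA4 by 0.67 (SE 0.11). The lectin chaperones CALR and CANX, already abundant, rose by 0.37 (SE 0.05) and 0.39 (SE 0.04). CRELD2, a target of ATF6, was at 20.2, 20.7 and 18.9 FPKM against 17, 15.3 and 15.9 FPKM and missed the threshold narrowly (limma adjusted p = 0.0515).

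Of 18 genes of ER-associated degradation 8 rose and 5 fell. SEL1L, the adaptor of the HRD1 ligase, was at 16.1, 16.5 and 12.7 FPKM against 9.83, 10.1 and 10.8 FPKM (log2 difference 0.51, SE 0.09). The ligase itself, SYVN1, did not pass (0.14, limma adjusted p = 0.223). The mannosidase-like EDEM3 rose by 0.49 (SE 0.08) while EDEM1 fell by 0.26 (SE 0.05). Sensors and their factors numbered 11, with 4 higher and 3 lower. XBP1, the factor spliced by IRE1, was at 127, 127 and 94.8 FPKM against 55.8, 53.9 and 57.9 FPKM (log2 difference 1.03, SE 0.12). A gene total does not separate spliced from unspliced XBP1. EIF2AK3 (PERK) was at 9.37, 9.51 and 7.74 FPKM against 5.06, 5.03 and 5.37 FPKM (log2 difference 0.68, SE 0.09). Both were thus clear of their controls. ERN1 (IRE1) at 0.03 and ATF6 at -0.07 did not pass, and WFS1, wolframin of the ER membrane, fell by 0.28 (SE 0.04).

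The ER stress element, the pattern read by ATF6 with NF-Y, was searched as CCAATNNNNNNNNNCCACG on both strands. It was found in 6 of 19 promoters of ER chaperone and degradation genes called higher (HSPA5, HSP90B1, CALR, CANX, ERO1B and XBP1) and in 7 of 32 promoters of all tested members, CRELD2 being the further one. Over all genes tested 14 promoters (0.136%) held it. HSPA5, at chr9:125241344-125241593 on the minus strand, has its match 66 bases before the start, and XBP1, at chr22:28800570-28800819 on the minus strand, 52 bases before it. They are shown as the strongest riser and the factor of this arm that carry the element, in the 250 bases before the start, with the element in capitals.
HSPA5: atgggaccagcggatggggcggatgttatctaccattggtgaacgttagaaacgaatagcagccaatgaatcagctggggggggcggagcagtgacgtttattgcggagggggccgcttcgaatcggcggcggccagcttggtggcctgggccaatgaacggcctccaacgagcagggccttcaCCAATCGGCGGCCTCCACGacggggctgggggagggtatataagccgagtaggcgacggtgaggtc
XBP1: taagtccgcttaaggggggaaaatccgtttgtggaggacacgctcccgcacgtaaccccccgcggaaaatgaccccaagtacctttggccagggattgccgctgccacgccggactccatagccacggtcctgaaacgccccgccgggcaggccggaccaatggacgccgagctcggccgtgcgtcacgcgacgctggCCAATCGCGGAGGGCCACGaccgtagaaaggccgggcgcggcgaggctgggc
HERPUD1, at chr16:56931892-56932141 on the plus strand, has no match to the ER stress element searched. Other forms of the element were not searched, so the lack of a match does not show that HERPUD1 has none. Its promoter holds TTGCATCA, the C/EBP and ATF4 pattern, 176 bases before the start, shown here in capitals because HERPUD1 is the ER gene with the largest rise.
HERPUD1: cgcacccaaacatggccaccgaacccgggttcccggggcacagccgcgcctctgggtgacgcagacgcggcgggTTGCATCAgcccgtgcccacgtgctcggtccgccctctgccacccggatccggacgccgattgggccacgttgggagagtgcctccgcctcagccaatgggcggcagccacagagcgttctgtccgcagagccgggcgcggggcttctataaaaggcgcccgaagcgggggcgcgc
That pattern was in 2 of 26 promoters of the ATF4 list (PPP1R15B and CHAC1) and in 0.465% of promoters of all genes tested.

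The integrated stress response was the list with the largest share of rises. Of 31 tested genes of ATF4 and its targets 22 rose and 4 fell, with a median of 0.35. ATF4 mRNA changed little, from 83.3, 81.6 and 82.4 FPKM to 99.2, 96.9 and 93.4 FPKM (log2 difference 0.22, SE 0.05). DDIT3 (CHOP) was at 19.4, 16.6 and 16.3 FPKM against 6.04, 7.09 and 7.99 FPKM (log2 difference 1.20, SE 0.11), though it overlaps MARS1. CHAC1, which degrades glutathione, was at 2.92, 1.79 and 1.83 FPKM against 0.451, 0.574 and 0.344 FPKM (log2 difference 1.11, SE 0.14). In all of these the exposed libraries lay above the controls. The amino acid transporter SLC38A2 was at 86.6, 80.6 and 72.7 FPKM against 48.8, 48.4 and 49.4 FPKM (log2 difference 0.70, SE 0.06). SESN2, a leucine sensor that restrains mTORC1, was at 33.1, 30.8 and 26.0 FPKM against 19.1, 18.9 and 18.9 FPKM (log2 difference 0.63, SE 0.09). CEBPB rose by 0.64 (SE 0.09), MTHFD2 of mitochondrial folate metabolism by 0.42 (SE 0.08) and PPP1R15B, the constitutive eIF2 phosphatase subunit, by 0.35 (SE 0.05). Its inducible counterpart PPP1R15A (GADD34) did not pass (-0.06, limma adjusted p = 0.724). TRIB3, a pseudokinase target of CHOP, went the other way, from 5.28, 4.74 and 4.48 FPKM to 3.62, 3.45 and 2.92 FPKM (log2 difference -0.43, SE 0.08). ASNS, asparagine synthetase, was below the filter, at 1.42, 1.04 and 0.478 FPKM in exposed and 0.251, 0.288 and 0.340 FPKM in control libraries. Cytosolic tRNA synthetases, partly under ATF4, were divided, with 6 of 20 higher and 5 lower. AARS1 rose by 0.28 (SE 0.07) and VARS1 fell by 0.30 (SE 0.03).

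**Figure D3:**
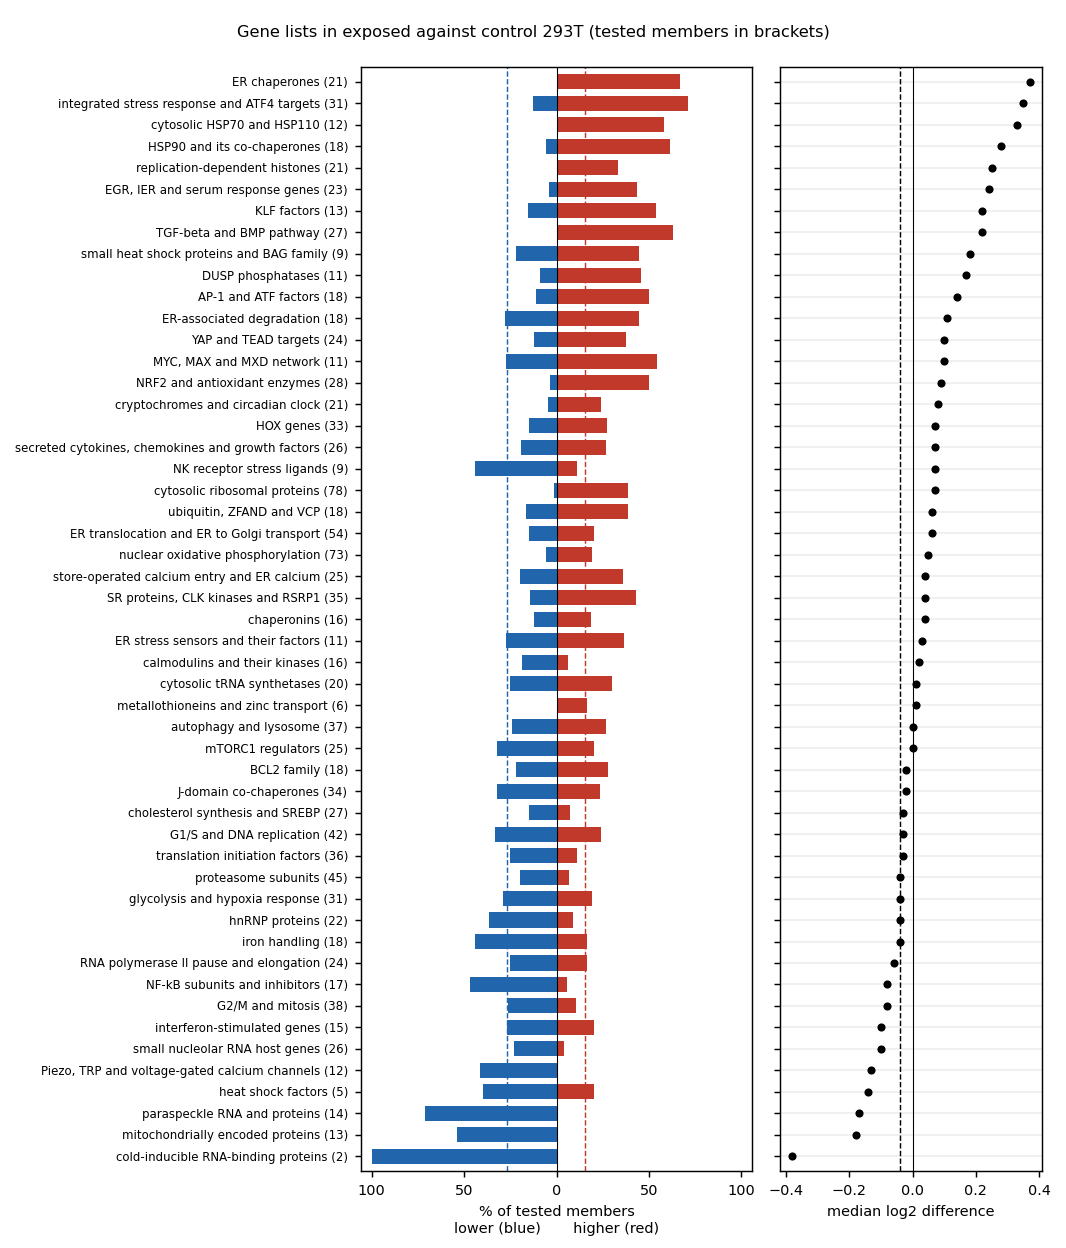
Share of tested members called higher (red, to the right) or lower (blue, to the left) and median log2 difference for 51 gene lists, ordered by median, with dashed lines for all genes tested (15.3% higher, 26.6% lower, median -0.04). ER chaperones and the ATF4 list stand at the top, and mitochondrially encoded, paraspeckle and cold-inducible genes at the bottom.

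Immediate early and stress factors rose unevenly. Of 18 AP-1 and ATF factors 9 rose and 2 fell. JUND was at 22.5, 23.3 and 17.8 FPKM against 11.9, 12.9 and 12.5 FPKM (log2 difference 0.72, SE 0.10). FOSL2 was at 3.68, 3.64 and 2.67 FPKM against 1.61, 1.65 and 1.63 FPKM (log2 difference 0.71, SE 0.08). Neither overlapped its controls. FOS, the partner of JUN that peaks within the first hour of a stimulus, was at 1.16, 1.31 and 0.906 FPKM against 0.820, 1.44 and 1.58 FPKM and did not pass (-0.09). JUNB (0.05) did not pass, and FOSB (-0.26, SE 0.06) and FOSL1 (-0.46, SE 0.08) fell at levels below 2 FPKM. In the EGR, IER and serum response list 10 of 23 rose and 1 fell, median 0.24. EGR1, a serum-response factor, was at 2.25, 2.25 and 1.56 FPKM against 2.30, 2.19 and 2.42 FPKM, IER2 was at 0.09 and NR4A1 at -0.10, and none of the 3 passed. BTG1, an antiproliferative gene, rose by 0.45 (SE 0.06) and CSRNP1 by 0.42 (SE 0.07). IER5, which recruits a phosphatase to HSF1, was higher in all exposed libraries, at 25, 22.6 and 22.4 FPKM against 15.8, 15.2 and 14.6 FPKM. Its limma adjusted p was 0.0666, in a range of 0.000291 to 0.162 over 17 alternatives, the lowest in a fit of 293T alone. Of 11 DUSP and related inhibitors of MAP kinases 5 rose and 1 fell, and 3 rose without exposed replicate 1 or control replicate 2. DUSP1, which switches off p38 and JNK, was at 40.1, 31.7 and 33.0 FPKM against 13.9, 15.4 and 13.3 FPKM (log2 difference 1.24, SE 0.10). DUSP4 and DUSP6, which act on ERK, stayed at or below 0.541 FPKM in all 6 libraries and were not tested.

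Of 13 KLF factors 7 rose and 2 fell. KLF6 was at 21.8, 19.8 and 16.3 FPKM against 7.76, 7.79 and 7.71 FPKM (log2 difference 1.20, SE 0.08, limma adjusted p = 2.59e-06). KLF2, a factor of endothelium and T cells, was low in controls at 0.501, 0.293 and 0.362 FPKM and reached 2.01, 1.83 and 0.850 FPKM (log2 difference 0.86, SE 0.14). KLF15 fell by 0.46 (SE 0.05), while KLF4 (0.19) and KLF9 (0.06) did not pass. In the MYC network 6 of 11 rose and 3 fell, and the members moved against each other. Without exposed replicate 2, or scaled without mitochondrially encoded genes, 3 rose. MYC was at 15.3, 15.7 and 16.2 FPKM against 24.8, 23.0 and 23.0 FPKM (log2 difference -0.56, SE 0.04, limma adjusted p = 9.21e-06). MXD1, which competes with MYC for MAX, was at 4.65, 4.17 and 3.57 FPKM against 1.89, 1.90 and 1.97 FPKM (log2 difference 0.81, SE 0.11). MYC was lower in every exposed library and MXD1 higher in every one. MNT (0.25, SE 0.06) and MGA (0.27, SE 0.05), other partners of MAX, rose. Not all partners did, since MXD3 fell by 0.28 (SE 0.07) and MXD4 (0.03) did not pass. MAX itself rose by 0.10 (SE 0.03), and MYCN was at or below 0.106 FPKM in each library.

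Regulators of mTORC1 gave 5 of 25 higher, 8 lower and a median of 0.00, and its inhibitors went both ways. Besides DDIT4 and SESN2, SESN3 rose by 0.52 (SE 0.12) and TSC1 by 0.26 (SE 0.04). RPTOR, which recruits mTORC1 substrates, fell by 0.28 (SE 0.04), and DEPDC5, of the inhibitory GATOR1 complex, by 0.34 (SE 0.05). CDKN1A (p21), a cell cycle inhibitor, was at 25.2, 25.2 and 21.8 FPKM against 14.2, 13.8 and 14 FPKM (log2 difference 0.74, SE 0.05, limma adjusted p = 3.77e-06). MDM2, a ubiquitin ligase, was at 0.03 and did not pass. In the BCL2 family 5 of 18 rose and 4 fell, counts that dropped to 3 and 2 without exposed replicate 1, to 3 and 1 without control replicate 1 and to 3 and 2 without control replicate 3, with 1 lower without exposed replicate 2. MCL1, a short-lived survival protein, was at 122, 117 and 100 FPKM against 75.4, 76.4 and 79.0 FPKM (log2 difference 0.54, SE 0.10). HRK, a BH3-only protein, rose by 0.34 (SE 0.07), BCL2L2 fell by 0.32 (SE 0.07), and PMAIP1 (NOXA) did not pass (0.10).

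The title of the series names RSRP1 and a secretory axis. RSRP1, an arginine and serine rich nuclear protein, was at 14, 15.5 and 18.9 FPKM in exposed and 8.28, 8.92 and 9.09 FPKM in control libraries (log2 difference 0.80, SE 0.10, limma adjusted p = 8.97e-05). Its highest value was in replicate 3, unlike the chaperones. Of the CLK kinases, which phosphorylate SR proteins, CLK1, CLK3 and CLK4 passed as higher. CLK1 was at 46.4, 41.8 and 44.9 FPKM against 20.2, 20.3 and 20.5 FPKM (log2 difference 1.09, SE 0.08), and CLK4 at 21.3, 19.2 and 17.5 FPKM against 9.64, 9.20 and 9.76 FPKM (log2 difference 0.94, SE 0.07). CLK3 rose by 0.23 (SE 0.06) and CLK2 was at -0.10 (adjusted p = 0.0504 in limma). Of the 35 genes in the list of SR proteins, CLK kinases and RSRP1, 15 rose and 5 fell, median 0.04. TRA2A rose by 0.35 (SE 0.05), SRSF1 by 0.21 (SE 0.05), and SRSF5 was at 91.0, 104 and 99.7 FPKM against 130, 132 and 130 FPKM (log2 difference -0.40, SE 0.05). Gene totals do not separate retained-intron from spliced forms, which several of these genes are known to make.

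Secreted factors showed no shared direction, with 7 of 26 tested cytokines, chemokines and growth factors higher and 5 lower. STC2, a stanniocalcin induced by ER stress and hypoxia, was at 31.6, 26.2 and 22.4 FPKM against 14.1, 14.7 and 13.9 FPKM (log2 difference 0.85, SE 0.12). VEGFA was at 14.2, 13.4 and 11.8 FPKM against 9.48, 8.90 and 8.95 FPKM (log2 difference 0.48, SE 0.06). GDF15, a stress hormone, rose at a low level, from 1.13, 0.888 and 0.867 FPKM to 2.03, 1.90 and 1.65 FPKM (log2 difference 0.55, SE 0.06). HBEGF rose by 0.50 (SE 0.09). TGFB1 fell by 0.29 (SE 0.04) and BMP2 by 0.39 (SE 0.06). IL6 was at or below 0.0342 FPKM and CXCL8 at or below 0.328 FPKM, so neither was tested. Genes of translocation into the ER and transport to the Golgi gave 11 of 54 higher and 8 lower, with KDELR2, a retrieval receptor, at 0.21 (SE 0.05). Only 6 of these 54 were higher when scaled without mitochondrially encoded genes or without control replicate 1 or 2, and 5 without exposed replicate 2.

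The list of the TGF-beta and BMP pathway had 17 of 27 genes higher and 0 lower, median 0.22. It did not hold the ligands TGFB1 (-0.29), BMP2 (-0.39) and BMP6 (-0.27), which fell. Of other ligands, GDF11 rose by 0.17, while BMP4 (0.11), BMP7 (0.03) and TGFB3 (-0.05) did not pass. Most named risers are known as feedback inhibitors or direct targets of SMAD factors. SMAD6 was at 28.2, 26.8 and 25.2 FPKM against 18.7, 18 and 17.6 FPKM (log2 difference 0.54, SE 0.06). SMAD7 was at 14.6, 12.7 and 16.5 FPKM against 10.4, 10.5 and 10.3 FPKM (log2 difference 0.45, SE 0.11). ID1, a target of BMP signalling, was at 27.1, 23.8 and 34.5 FPKM against 19.4, 19 and 21.5 FPKM (log2 difference 0.47, SE 0.10). In SMAD7 and ID1 replicate 3 was the highest exposed library. PMEPA1 (0.62, SE 0.06), BAMBI (0.56, SE 0.08) and ID3 (0.33, SE 0.07) rose as well. Leaving out 1 library at a time gave between 11 (without exposed replicate 1) and 17 genes of the list higher and at most 1 lower. Among 24 YAP and TEAD targets 9 rose and 3 fell, and 5 rose without exposed replicate 1, exposed replicate 2 or control replicate 2. Only 1 fell without exposed replicate 1, control replicate 2 or control replicate 3. SGK1 rose by 0.41 (SE 0.05) and FJX1 fell by 0.47 (SE 0.05), while YAP1 (0.12) and AMOTL2 (0.16) did not pass.

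Of 17 NF-kB subunits and inhibitors 1 rose and 8 fell, with a median of -0.08, and 4 fell without control replicate 1 or 2. RELA was at 26.9, 26.4 and 25.5 FPKM against 31.2, 30.1 and 28.4 FPKM (log2 difference -0.18, SE 0.05). TNFAIP3 (A20), a feedback inhibitor, fell by 0.26 (SE 0.06), and NFKBIA, another, was at 0.08 and did not pass. Interferon-stimulated genes were few, with 15 of 32 tested, 3 higher and 4 lower, or 2 lower without any 1 of the controls. IRF9, the DNA-binding subunit of the interferon-activated factor ISGF3, was at 4.16, 4.56 and 4.27 FPKM against 2.45, 2.03 and 3.35 FPKM (log2 difference 0.58, SE 0.10). IFIT5 fell by 0.40 (SE 0.06), so members of the pathway moved apart. Ligands of natural killer receptors gave 1 of 9 higher and 4 lower, or 2 lower without exposed replicate 1 or 2 or control replicate 2 or 3. MICA rose by 0.24 (SE 0.04), while ULBP3 was at 4.44, 4.59 and 5.45 FPKM against 7.11, 7.96 and 6.92 FPKM (log2 difference -0.52, SE 0.07).

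**Figure D4:**
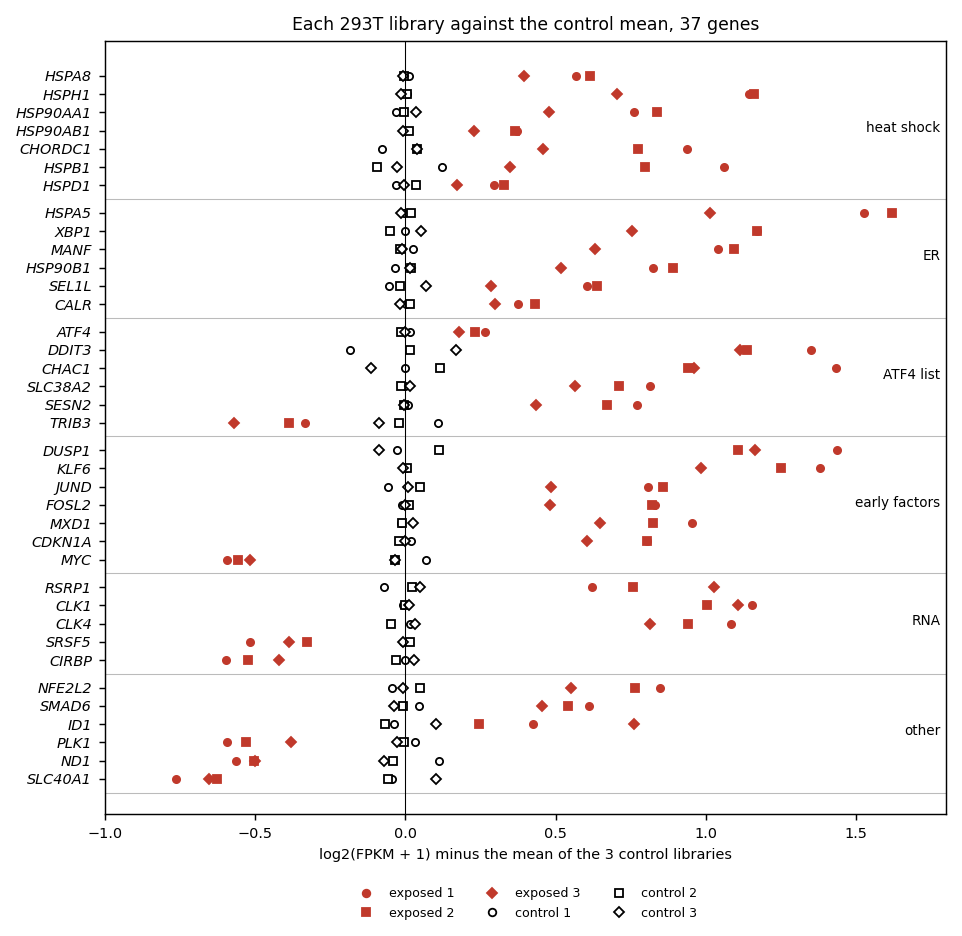
Log2(FPKM + 1) of each library minus the mean of the 3 controls for 37 genes of the lists described, with exposed libraries filled, controls open and a marker shape for each replicate number. Exposed and control libraries are apart in every gene drawn, and replicate 3 lies nearest to 0 for most chaperone and ER genes but is the highest exposed library for RSRP1 and ID1.

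Paraspeckles are nuclear bodies built on NEAT1, and most of their genes were lower. Gene totals of poly(A)-selected RNA do not separate the forms of a transcript such as NEAT1, and paraspeckles themselves were not measured. Of 14 paraspeckle genes 10 fell and 0 rose, with a median of -0.17, and 9 to 10 fell whichever library was left out. MALAT1, a neighbour of NEAT1 that marks nuclear speckles, was at 7.95, 8.02 and 7.90 FPKM against 9.97, 10 and 10.1 FPKM (log2 difference -0.30, SE 0.05). EWSR1 fell by 0.28 (SE 0.03), PSPC1 by 0.30 (SE 0.06) and NONO by 0.13 (SE 0.03), while SFPQ was at 0.00 and did not pass. Among 22 hnRNP genes 2 rose and 8 fell, HNRNPDL by 0.33 (SE 0.05). Cold-inducible RNA-binding genes both fell. CIRBP was at 22.0, 23.2 and 25 FPKM against 33.8, 33.1 and 34.5 FPKM (log2 difference -0.51, SE 0.06), and RBM3 at 90.5, 90.8 and 97.3 FPKM against 107, 113 and 111 FPKM (log2 difference -0.25, SE 0.04). These transcripts are known to rise in mild cold and to fall with warming. Host genes of small nucleolar RNAs gave 1 of 26 higher and 6 lower, or 3 lower without control replicate 1, and GAS5 (-0.08) and SNHG1 (0.01) did not pass.

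Factors that hold or release paused RNA polymerase II gave 4 of 24 higher and 6 lower, close to the shares over all genes. CCNT1, the cyclin of P-TEFb, was at 24.5, 24.4 and 21.2 FPKM against 14.8, 15.1 and 15 FPKM (log2 difference 0.61, SE 0.05). HEXIM1, its inhibitor, was at 31.6, 31.9 and 32.6 FPKM against 23.9, 24.8 and 24.1 FPKM (log2 difference 0.38, SE 0.04). CDK9, the kinase partner of CCNT1, fell by 0.39 (SE 0.07), so the cyclin and its kinase moved in opposite directions. BRD2 rose by 0.39 (SE 0.06).

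Cell cycle genes changed by small amounts. Of 42 genes of G1/S and replication 10 rose and 14 fell, and of 38 genes of G2/M and mitosis 4 rose and 10 fell. Without exposed replicate 2 or control replicate 1, 9 of the first list fell and 2 of the other rose. Of the mitotic list 15 fell without exposed replicate 3 and 17 when scaled without mitochondrially encoded genes. E2F3 was at 22.8, 22.1 and 20.8 FPKM against 14.4, 14.7 and 15 FPKM (log2 difference 0.54, SE 0.05). CCND1 fell by 0.30 (SE 0.05), and PCNA was at 0.06 and did not pass. PLK1, a mitotic kinase, was at 65.8, 68.8 and 76.5 FPKM against 102, 99.5 and 97.8 FPKM (log2 difference -0.50, SE 0.05). WEE1, which holds CDK1 inactive, was at 21.8, 20.4 and 18.4 FPKM against 13.5, 13.9 and 13.3 FPKM (log2 difference 0.54, SE 0.07). CDC25C, which opposes WEE1, fell by 0.29 (SE 0.07), and CDC20 by 0.23 (SE 0.05). TOP2A (0.07) and CCNB1 (-0.11) did not pass. Replication-dependent histone genes, poorly captured by oligo(dT) since their mRNAs lack a poly(A) tail, had 21 of 59 members in the file tested, of which 7 rose and 0 fell, and 11 rose without exposed replicate 3. H2BC12, the most abundant of those named, rose by 0.25 (SE 0.06).

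Ribosomal protein genes rose by very little, with 30 of 78 called higher, 1 lower and a median of 0.07. RPSA was at 1534, 1571 and 1550 FPKM against 1428, 1407 and 1388 FPKM (log2 difference 0.14, SE 0.03). This direction depended on scaling, since quantile normalization gave 8 higher, 10 lower and a median of -0.01. It also rested on single libraries, with 13 higher without exposed replicate 2, 19 without control replicate 2 and 14 without control replicate 3. Initiation factors gave 4 of 36 higher and 9 lower, or 4 lower without exposed replicate 1 or control replicate 2. EIF4A2 was at 173, 181 and 147 FPKM against 116, 118 and 120 FPKM (log2 difference 0.50, SE 0.07). EIF1 rose by 0.31 (SE 0.04) and EIF4G1, the scaffold of the cap-binding complex, fell by 0.24 (SE 0.03). Mitochondrially encoded proteins were lower in 7 of 13 genes and higher in 0, median -0.18. ND1, of complex I, was at 2010, 2099 and 2103 FPKM against 3211, 2888 and 2834 FPKM (log2 difference -0.52, SE 0.05). COX1 fell by 0.26 (SE 0.04) and CYTB was at -0.02, so the transcripts of this genome were not lowered alike. After quantile normalization the median of the 13 was -0.01 and COX1 was at 0.01, while 4 were still called lower. Nuclear genes of oxidative phosphorylation gave 14 of 73 higher and 4 lower, ATP5F1B at 0.10 (SE 0.03), but 6 higher and 7 lower when scaled without mitochondrially encoded genes. Without exposed replicate 2 the count higher was 5, without control replicate 1 it was 7 and without control replicate 3 it was 8.

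Metabolic genes divided. Of 31 genes of glycolysis and hypoxia 6 rose and 9 fell, and 3 rose without exposed replicate 1. P4HA1, a collagen prolyl hydroxylase, rose by 0.53 (SE 0.09), HILPDA fell by 0.44 (SE 0.07) and LDHA (0.02) did not pass. Few cholesterol genes were called, with 2 of 27 higher and 4 lower, and SQLE (0.08) did not pass. Log2 differences of that list ran from -0.34 to 0.49. In the NRF2 and antioxidant list 14 of 28 rose and 1 fell, median 0.09. NFE2L2, which encodes NRF2, was at 34.6, 32.6 and 28.0 FPKM against 18.2, 19.5 and 18.7 FPKM (log2 difference 0.72, SE 0.06, limma adjusted p = 1.50e-05). Its classical targets moved less, HMOX1 by 0.21 (SE 0.06) and NQO1 by 0.19 (SE 0.05), and SRXN1 fell by 0.25 (SE 0.04). MTF1, the zinc sensor of metallothionein genes, rose by 0.30 (SE 0.06), while MT2A (0.02) and MT1X (-0.04) did not pass. Iron genes gave 3 of 18 higher and 8 lower, with 5 higher without exposed replicate 3. Besides TFRC, the iron exporter SLC40A1 was at 0.671, 0.834 and 0.8 FPKM against 1.75, 1.72 and 2.04 FPKM (log2 difference -0.68, SE 0.09). The importer SLC11A2 was at 4.29, 4.14 and 4.42 FPKM against 5.93, 6.09 and 6.31 FPKM (log2 difference -0.43, SE 0.04). IREB2, which stabilises TFRC mRNA when iron is scarce, fell by 0.30 (SE 0.06), and the ferritin chains FTL and FTH1 rose by 0.25 (SE 0.04) and 0.10 (SE 0.03). The named uptake and export transcripts thus fell, while those of the ferritin chains rose.

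Gene groups discussed as targets of magnetic fields were described next. Cryptochromes, flavoproteins of the clock discussed as magnetic sensors in animals, did not pass, with CRY1 at 0.05 (SE 0.06) and CRY2 at 0.11 (SE 0.05). ISCA1, an iron-sulfur assembly protein also discussed there, was at 0.03 (SE 0.05). Of 21 clock genes 5 rose and 1 fell (3 fell without control replicate 2), PER2 by 0.26 (SE 0.05), DBP by 0.33 (SE 0.08) and NFIL3 by 0.55 (SE 0.08). Piezo, TRP and voltage-gated calcium channels had 12 of 30 genes tested, of which 0 rose and 5 fell. PIEZO1, a mechanosensitive channel, was at 5.99, 5.56 and 5.91 FPKM against 7.91, 7.61 and 7.67 FPKM (log2 difference -0.36, SE 0.05), and 2 of the 12 were lower after quantile normalization and 3 without exposed replicate 2 or control replicate 1 or 2. TRPM7 (0.04), TRPC1 (-0.04) and TRPV1 (-0.05) did not pass. Store-operated calcium entry and ER calcium genes gave 9 of 25 higher and 5 lower. ORAI3, a calcium channel of the plasma membrane, was at 0.452, 0.553 and 0.678 FPKM against 1.47, 1.34 and 1.42 FPKM (log2 difference -0.63, SE 0.09). The ER pump ATP2A2 (SERCA2) rose by 0.27 (SE 0.04), and STIM1 (-0.10) and ORAI1 (-0.07) did not pass. Calmodulin genes and kinases gave 1 of 16 higher and 3 lower, with CAMKK1 at -0.46 (SE 0.06). Autophagy and lysosome genes were balanced at 10 of 37 higher and 9 lower, or 6 higher without exposed replicate 1, with MAP1LC3B at 0.18 (SE 0.04) and ULK1 at -0.30 (SE 0.06). Of 33 HOX genes, which keep the body position of the embryonic origin, 9 rose and 5 fell, or 3 fell without control replicate 3. HOXB9 rose by 0.37 (SE 0.07), HOXD9 fell by 0.43 (SE 0.04) and HOXD10 (-0.01) did not pass. Log2 differences of the HOX list ran from -0.43 to 0.92, so the largest change was a rise.

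Classes of genes differed in their counts. Non-coding genes were called higher in 8.71% and lower in 31.1% of 976 tested, against 15.8% and 26.2% of 11642 protein-coding genes. Their medians were -0.11 and -0.03. Genes named as antisense RNAs reached 7.80% higher and 37.6% lower of 295, though without stranded counting they cannot be told apart from the genes opposite. Zinc finger genes of the ZNF family went the other way, with 23.4% higher and 19.1% lower of 423. By exon number, 22.2% of protein-coding genes with 2 to 3 exons rose and 24.2% fell, while 11.6% of those with 16 or more exons rose and 33.2% fell. Falls were not graded by exon number, at 28.4% for 1 exon, 19.9% for 4 to 7 and 27.0% for 8 to 15. Rises in these 3 bins were 20.4%, 18.2% and 14.9%. By genomic span, 13.9% of protein-coding genes of 3 to 10 kb rose and 30.9% fell, while 16.8% of those over 100 kb rose and 17% fell. Protein-coding genes under 3 kb lay between, with 15.3% higher and 26.7% lower. Of the 22 genes with a log2 difference of at least 1, all were protein-coding. These splits depended on the scaling. Quantile normalization gave 119 higher and 225 lower of the non-coding genes, 133 higher and 59 lower of the ZNF genes (99 and 81 as fitted here), and 547 higher and 257 lower of the protein-coding genes over 100 kb (363 and 367 as fitted here). These classes share genes with each other and were not tested against each other.

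The response was compared with that of A549 by the difference between the 2 effects, A549 minus 293T. This difference passed in 1408 genes, or 11.2% of those tested in limma, with 654 higher and 754 lower in A549. Many chaperones were raised in both lines, and a number of them more in A549. HSPA1B (difference 1.21), HSPH1 (1.08), CHORDC1 (0.67), DNAJA1 (0.59) and HSP90AA1 (0.40) passed in that direction. HSPA1A (difference 0.10, SE 0.30), DNAJB1 (-0.19, SE 0.27) and HERPUD1 (0.39, SE 0.34) did not pass, and neither did NEAT1 (-0.08, SE 0.09). Since the split of reads between HSPA1A and HSPA1B is uncertain, HSPA1A alone does not show a like response. Several factors of the early stress response rose more in 293T. RHOB was at 42.8, 63.3 and 42.3 FPKM in exposed and 32.2, 33.2 and 33.3 FPKM in control A549 cells, so the difference was -1.74 (SE 0.27, limma adjusted p = 0.00215). ATF3 was at 13.8, 19.2 and 14.4 FPKM against 16, 18.4 and 17 FPKM in A549, with overlapping groups, and the difference was -1.63 (SE 0.21). DDIT4 (-1.47, SE 0.20) and JUN (-1.10, SE 0.26) rose in both lines and more in 293T. SLC7A11, the cystine importer, whose call in 293T was lost in 5 of 17 alternatives, was at 5.80, 5.30 and 3.17 FPKM against 2.90, 2.67 and 3.15 FPKM in 293T and fell in A549 (difference -1.04, SE 0.23). NRIP1, a nuclear receptor corepressor, was at -0.05 in 293T and fell by 1.10 in A549 (difference -1.05, SE 0.10).

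Other genes rose more in A549. HSPA6 reached 100, 431 and 95.9 FPKM from controls of 0.601, 0.602 and 0.875 FPKM there, and its difference was 3.53 (SE 0.90, limma adjusted p = 0.0264). MICB, a ligand of the natural killer receptor NKG2D, was at 5.09, 4.8 and 4.52 FPKM against 4.37, 4.55 and 3.95 FPKM in 293T, where it did not pass, and the difference was 1.77 (SE 0.16). CCN2, a target of YAP, was at 1.90, 1.34 and 2.02 FPKM against 1.83, 1.67 and 2.06 FPKM in 293T, with overlapping groups, and the difference was 1.56 (SE 0.18). CCN1 (1.54, SE 0.24), HSPB8 (1.52, SE 0.27) and ANKRD1 (1.42, SE 0.29) followed. In 293T the calls of CCN1 and ANKRD1 were lost in 8 and 5 of 17 alternatives. MYC fell in 293T and was higher in exposed A549, a difference of 1.34 (adjusted p = 4.05e-07 in limma). TFRC, lower in exposed 293T, was at 80.2, 79.9 and 82.7 FPKM against 84.0, 83.2 and 83.5 FPKM in A549 (difference 0.85, SE 0.05, limma adjusted p = 4.65e-06). RSRP1 and CLK1 rose in both lines and more in A549, by 0.50 (adjusted p = 0.0328) and 0.72 (adjusted p = 0.00229), both from limma.

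**Figure D5:**
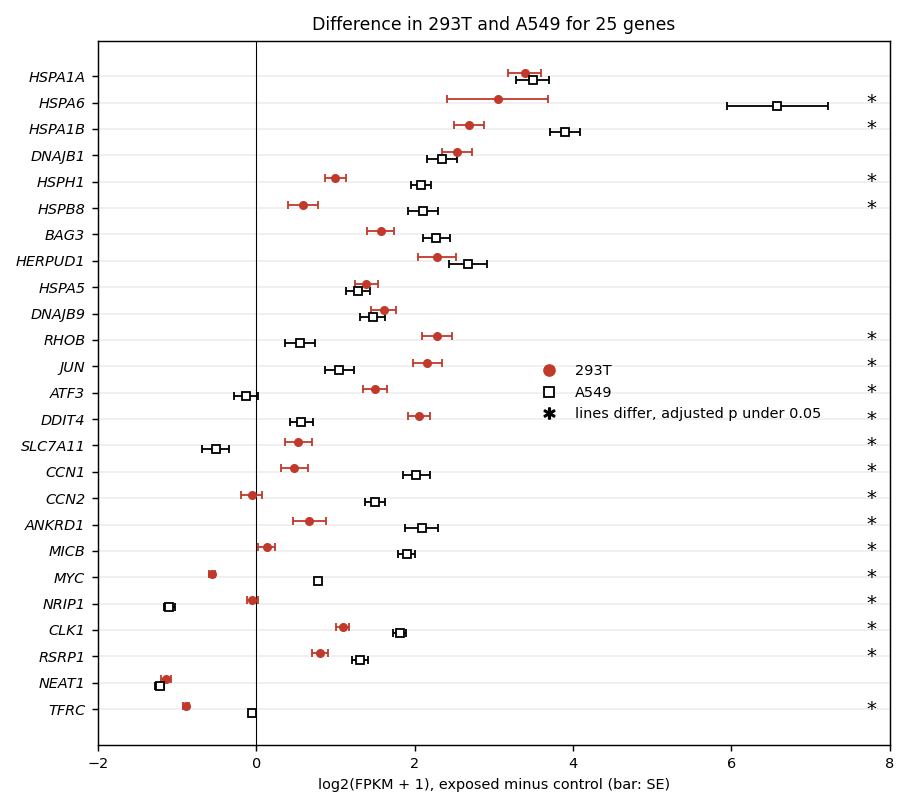
Log2(FPKM + 1) difference, exposed minus control, in 293T (red circles) and A549 (open squares) for 25 genes, with bars for the limma SE. An asterisk marks the 18 genes whose difference between lines passed, among them RHOB, JUN, ATF3 and DDIT4 with more in 293T and HSPA6, CCN2 and MICB with more in A549.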

How the data were processed

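Per the submitters' processing notes, reads were handled with fastp, HISAT2 and HTSeq on GRCh38. No version, annotation or strand setting is known here. The authors deposited FPKM values per gene, 3 columns for each of 4 samples. Whole counts could be recovered from their steps for 100% of genes (tolerance 0.01 counts) and gave the depths. On the log2(FPKM + 1) scale, limma 3.58.1 in R 4.3.3 estimated the mean of each of 4 groups, using an intensity trend and 8 residual degrees of freedom, so 1 variance per gene is shared by both lines. P-values were adjusted by Benjamini-Hochberg over 12618 genes, with a threshold of 0.05. The fit was checked on simulated data. Tables were made with Python 3.11.15, pandas 2.3.3 and numpy 2.4.6. Named genes were the 12 largest rises and falls among called genes with groups apart and a higher group averaging 1 FPKM or more, leading members of each list and up to 3 more of its largest changes, the 6 largest differences between lines each way, and the 5 largest ratios each way above 5 FPKM. Alternatives covered pseudocount, filter, scaling, TPM, trend, 293T alone, a replicate block, limma-voom on recovered counts and each library left out. Results for a few genes are not reported here. The members and lists were chosen with earlier results of these data known.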

Additional observations from a re-analysis of the deposited data

Results flagged for a closer look

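For the genes here the change differed between A549 and 293T by the interaction test in limma at an adjusted p under 0.05. Each value in parentheses is the difference of the 2 log2 differences, A549 minus 293T, and the test passed in 11.2% of all genes. Rises passed in both lines and the change was more positive in A549 for HSPA6 (3.53), CCN1 (1.54), HSPB8 (1.52), ANKRD1 (1.42), ZFAND2A (1.31), HSPA1B (1.21), HSPH1 (1.08), CLK1 (0.72), CHORDC1 (0.67), DNAJA1 (0.59), HSPD1 (0.51), RSRP1 (0.50), AHSA1 (0.49), STIP1 (0.41), HSP90AA1 (0.40), DNAJB6 (0.34), PPID (0.31) and HSP90AB1 (0.30). Genes that rose in 293T and did not pass in A549, with the change more negative in A549, were ATF3 (-1.63), JUND (-0.98), KLF2 (-0.85), IRF9 (-0.72), CDKN1A (-0.65), STC2 (-0.61), BTG1 (-0.59), CSRNP1 (-0.55), E2F3 (-0.50), NFIL3 (-0.48), DBP (-0.43), PER2 (-0.39), SQSTM1 (-0.38), MNT (-0.37), H2BC12 (-0.28) and TSC1 (-0.23). Genes that did not pass in 293T and rose in A549, with the change more positive in A549, were MICB (1.77), CCN2 (1.56), PMAIP1 (0.69), AMOTL2 (0.66), CCNB1 (0.40) and TCP1 (0.31). Genes that did not pass in 293T and fell in A549, with the change more negative in A549, were NRIP1 (-1.05), KLF4 (-0.62), NFKBIA (-0.35), MDM2 (-0.30), CRY2 (-0.30), GAS5 (-0.27), PCNA (-0.24) and IER2 (-0.21). Genes that fell in 293T and did not pass in A549, with the change more positive in A549, were TFRC (0.85), KLF15 (0.47), ULBP3 (0.46), BMP2 (0.42), HOXD9 (0.42), FOSL1 (0.39), TRIB3 (0.38) and CCND1 (0.34). Rises passed in both lines and the change was more negative in A549 for RHOB (-1.74), DDIT4 (-1.47), JUN (-1.10), KLF6 (-0.82), NFE2L2 (-0.31) and VEGFA (-0.30). Falls passed in both lines and the change was more positive in A549 for PRR22 (0.46), SLC40A1 (0.45), PLK1 (0.35) and EWSR1 (0.20). Falls passed in both lines and the change was more negative in A549 for CAMKK1 (-0.59), CIRBP (-0.30) and RPTOR (-0.20). Genes that rose in 293T and fell in A549, with the change more negative in A549, were SLC7A11 (-1.04), PMEPA1 (-0.95) and ID1 (-0.80). A gene that fell in 293T and rose in A549, with the change more positive in A549, was MYC (1.34). A call in 1 line and none in the other is not itself the evidence of a difference, which rests on the interaction test.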

How the results depend on the processing

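Of 448 named genes tested in 293T, 330 were called, and 255 of these were called in each of 17 alternatives while 75 were lost in at least 1. The counts of genes higher and lower moved by less than 1.5 times in every alternative. Without 1 library they ranged from 1484 to 1927 higher and from 2570 to 3569 lower. The numbers of genes with a log2 difference of at least 1 upwards and downwards, 22 and 2 as fitted here, were 56 and 61 with a pseudocount of 0.1, 37 and 13 on TPM, and 68 and 87 with limma-voom on recovered counts. Leaving out 1 library gave 18 to 30 genes upwards and 2 to 6 downwards, the highest of each without exposed replicate 3. Quantile normalization turned 3 named genes, RPLP0 to -0.02, COX1 to 0.01 and GAPDH to -0.05. Scaling also moved some list counts not given under it above. The mTORC1 list had 8 higher after quantile normalization. Scaled without mitochondrially encoded genes, 5 YAP targets, 8 genes of the SR protein list and 10 small nucleolar RNA host genes were lower. Median centring gave 5 initiation factors, 3 polymerase II factors, 3 channels and 4 ER transport genes lower. Same-numbered exposed and control libraries did not deviate together (correlations -0.081, -0.003 and -0.107), so the numbers were not taken as pairs. With a replicate block 1594 genes were higher and 2951 lower, and the difference between lines passed in 377 genes higher and 417 lower in A549 instead of 654 and 754. Without 1 library of 293T these were 449 to 927 and 481 to 844, the lowest lower counts without control replicate 2 (481) and control replicate 3 (498). The causes were not tested. With 3 libraries a group an exact permutation test cannot go below p = 0.1, so single genes rest on the variance model, and genes near 0.5 FPKM carry few reads.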

Other observations

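The genes of these paragraphs lie outside the lists above and were chosen after their values were seen, so their calls are a description. SERPINH1, the collagen chaperone HSP47 of the ER, was at 83.3, 82.2 and 60.0 FPKM in exposed and 43.2, 43.1 and 44.0 FPKM in control libraries (log2 difference 0.76, limma adjusted p = 0.0132). DEDD2, a nuclear death-effector domain protein, was at 25.8, 21.5 and 17.2 FPKM against 10.9, 10 and 9.92 FPKM (log2 difference 0.98). SOX4, a developmental transcription factor, was at 57.1, 54.1 and 45.2 FPKM against 31.3, 32.3 and 33.0 FPKM (log2 difference 0.67), and SIX4, a homeobox factor, at 11.9, 10.7 and 10.4 FPKM against 6.04, 5.88 and 6.15 FPKM (log2 difference 0.77). RGS2, which turns off Gq signalling, was at 11.5, 12.4 and 12.1 FPKM against 7.78, 6.08 and 7.58 FPKM (log2 difference 0.68). In all 5 genes every exposed library lay above every control.

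Genes of membrane traffic and metabolism were among the falls. CHMP6, an ESCRT-III subunit, was at 5.17, 4.68 and 6.29 FPKM against 9.94, 10 and 9.19 FPKM (log2 difference -0.76). VAMP2, a vesicle SNARE, was at 9.42, 10.2 and 12 FPKM against 18.2, 17.4 and 17 FPKM (log2 difference -0.69). The groups of both were apart. PMM2, which supplies mannose for N-glycosylation, was at 10.4, 9.87 and 12.4 FPKM against 17.6, 19.4 and 18 FPKM (log2 difference -0.71), and the folate carrier SLC25A32 at 9.18, 8.52 and 10.7 FPKM against 16.2, 15.7 and 16.4 FPKM (log2 difference -0.71). DGAT2, which makes triglycerides, was at 1.90, 2.30 and 1.86 FPKM against 3.85, 3.65 and 4.16 FPKM (log2 difference -0.70). SERF1B, with its near-identical copy SERF1A, had exposed values of 1.49, 7.73 and 0.552 FPKM against 0.445, 0.362 and 0.423 FPKM, so its log2 difference of 1.20 rested mainly on exposed replicate 2.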
